A study of Saccharomyces cerevisiae with 14 samples.

Results

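The nuclear tRNA genes of budding yeast, 275 of the 6431 nuclear genes in the RefSeq annotation, were described through the Rad52 peaks that overlapped them. All genes of biotype tRNA on the 16 nuclear chromosomes were taken, whatever their values, and the 24 mitochondrial tRNA genes were left out. The genes measured 71 to 133 bp, with a median of 73 bp, and 143 lay on the plus strand and 132 on the minus strand. Rad52 is the recombination protein that loads at damaged DNA, and the series used its chromatin immunoprecipitation as a readout of damage linked to DNA-RNA hybrids. Each of the 14 libraries was deposited as 1 list of peaks.

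The 8 groups differed in strain and treatment. In a background labelled 288C, 11 libraries received 0.5 µM auxin for 4 h, the WT cells included. They were h1D-h2D Sen1-AID (with 2 libraries), h1D-h2D Top1-AID (with 2), Sen1-AID (2), h1D-h2D (2), Top1-AID (1) and WT (2). The label h1D-h2D was read as loss of the RNase H genes RNH1 and RNH201, which the series' design names. AID stands for auxin-inducible degron, a tag through which auxin has the tagged protein degraded. For h1D-h2D Top1-AID the titles name the degron, while the genotype label gives Top1 alone. The remaining 3 libraries came from Gal-HO cells of a background labelled JKM, given 2% galactose (2 libraries) or dextrose (1), with no auxin in their labels. Gal-HO cells make the HO endonuclease in galactose. All cells were grown in rich medium. Peak lists hold no measure of expression, so they show neither the depletion of Sen1 or Top1 nor whether the RNase H genes are gone. In them, RNH1 and TOP1 had no peak in any library. SEN1 had a peak in Sen1-AID replicate 1 only, over 343 bp (5.12% of the gene). A peak overlapped the last 76 and 87 bp of RNH201 (8.23% and 9.42% of the gene) in h1D-h2D Sen1-AID replicates 1 and 2, and its remaining length lay outside the gene. Libraries are named by their labels throughout.

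tRNA genes are transcribed by RNA polymerase III. The factor TFIIIC binds boxes inside the gene, TFIIIB is placed just upstream, and the polymerase is recycled through many rounds on the same short unit. The genes are scattered over all chromosomes, pause replication forks and are preferred neighbours of Ty retrotransposon insertions. Sen1 is a helicase that removes RNA from DNA and takes part in transcription termination, RNase H digests the RNA strand of a hybrid, and Top1 relaxes the supercoils that transcription makes.

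Lists held 254 to 305 nuclear peaks in the 4 libraries of the combined mutants, a name used here for h1D-h2D Sen1-AID together with h1D-h2D Top1-AID, and 454 to 731 in the other 7 auxin libraries. The Gal-HO libraries held 544 to 637. Read depth is unknown and no control library is named in the sources used here. The lowest score was between 50.02 and 50.53 in every list, in a unit that no header explains. Scores were therefore used as percentiles within a list, where 100 is the top, except where an alternative set a common score minimum. The labels do not say that replicates were separate cultures, so p-values measure only the spread between these libraries, which may be technical.

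Most tRNA genes carried a Rad52 peak outside the combined mutants. Of the 275 genes, the h1D-h2D Sen1-AID libraries had peaks on 101 and 122, and the h1D-h2D Top1-AID libraries on 100 and 104. Peaks overlapped 230 and 222 genes in Sen1-AID, 224 and 232 in h1D-h2D, 171 in Top1-AID, and 229 and 248 in WT. Every combined-mutant library lay below every other auxin library. Gal-HO cells had 177 and 197 covered genes in galactose, and 206 in dextrose. As shares, coverage was 36.4% to 44.4% in the combined mutants and 62.2% to 90.2% in the other auxin libraries. Coverage of the 6156 other nuclear genes was 7.55% to 11.5% in the combined mutants and 12.8% to 27.2% in the other auxin libraries. So both tRNA genes and the rest were covered less in the shorter lists, and the share of peaks that lay on a tRNA gene was 32.5% to 37.8% in the combined mutants and 29.0% to 46.7% in the other auxin libraries, with overlap.

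**Figure D1:**
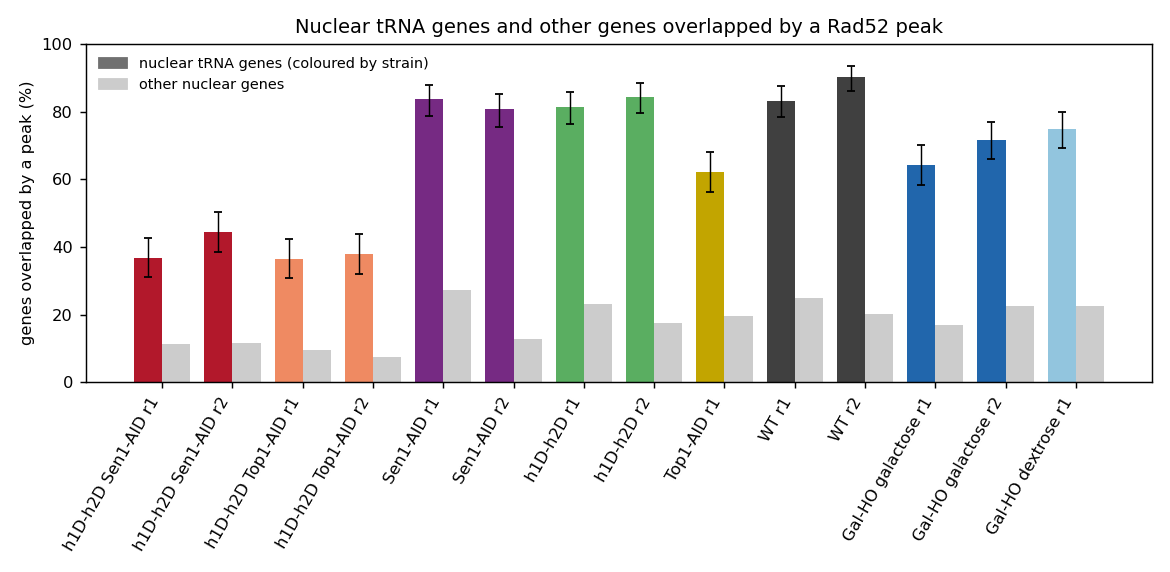
Share of genes overlapped by a peak (%) in each of the 14 libraries; coloured bars are the 275 nuclear tRNA genes with exact Clopper-Pearson intervals at 95%, which cover counting error only, and grey bars the 6156 other nuclear genes. The 4 combined-mutant libraries lie at 36.4% to 44.4% and the other auxin libraries at 62.2% to 90.2%.

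Some tRNA genes were covered everywhere and a few nowhere. All 14 libraries had a peak on 41 tRNA genes (14.9%), against 155 of the other nuclear genes (2.52%). No library had a peak on 9 tRNA genes (3.27%), against 3648 other genes (59.3%). The median tRNA gene was covered in 10 libraries, and the median other gene in 0. The 9 without any peak were YNCC0008W, YNCC0009C, YNCE0009C, YNCE0023W, YNCG0022W, YNCJ0015W, YNCL0001W, YNCL0009C and YNCO0002W. Of these, YNCG0022W had a Ty gene within 1 kb.

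Peaks on tRNA genes scored low within their lists. Their median percentile was 33.1 to 45.1 in the combined mutants and 30.0 to 46.1 in the other auxin libraries. Peaks elsewhere had medians of 52.3 to 62.2 in the combined mutants and 52.4 to 61.1 in the other auxin libraries. Peaks on tRNA genes were also narrower, with median widths of 1096 to 1501 bp over the 11 auxin libraries, where peaks elsewhere measured 1641 to 2609.5 bp. In the 4 Sen1-depleted libraries (Sen1-AID with and without RNase H loss), 3.54% to 7.53% of the peaks on tRNA genes were above the 90th percentile of their list. In the 7 auxin libraries without Sen1 depletion the range was 1.09% to 2.50%, with no overlap between these groups. The shares rest on 4 to 14 peaks per Sen1-depleted library and 1 to 5 per library of the 7. The Gal-HO libraries, which carry no Sen1 degron in their labels, had 2.96% and 5.41% in galactose and 4.64% in dextrose, and so overlapped the Sen1-depleted range.

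The highest WT percentiles belonged to a few genes. YNCE0005W (V 86604–86685) averaged 97.7 in WT and was covered in 12 of 14 libraries, all except h1D-h2D Sen1-AID. Its peak lay mostly upstream, reaching 1755 to 2178 bp before the gene and 529 to 801 bp past it. YNCL0040W and YNCL0044W on chromosome XII, which lie 3188 bp apart, both averaged 96.7 because they shared the same peak in WT. TRN1, a proline tRNA gene (I 139152–139254), averaged 89.1, and its WT peaks ran 4849 and 4835 bp past the gene. YNCE0004C averaged 88.9 and YNCN0007W 88.5. SUP7, a tyrosine tRNA gene, and YNCJ0011W averaged 88.3 and shared 1 peak in both WT libraries. A peak's score belongs to the whole peak, so genes in a shared or wide peak carry a score that neighbouring sequence may set. Over the 14 libraries, 19 pairs of tRNA genes, 35 genes in all, shared a peak in at least 1 library.

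The first comparison asked which tRNA genes were covered less often when RNase H was lost together with Sen1 or Top1. Genes entered the test when 3 to 8 of the 11 auxin libraries covered them, the totals at which its unadjusted p can fall under 0.05 in some direction. Of 152 such tRNA genes, 61 were covered less often in the combined mutants than in the other auxin libraries (40.1%), by Fisher's exact test per gene with Benjamini-Hochberg adjustment over the 1199 nuclear genes tested. Of all 1199 genes, 375 were called less often covered, a background of 31.3%. The 61 comprised 35 genes with a peak in 0 of 4 combined-mutant libraries and 7 of 7 others (exact p = 0.00303, adjusted p = 0.0256) and 26 genes with 0 of 4 and 6 of 7 (p = 0.0152, adjusted p = 0.0482). Another 44 tRNA genes had a peak in all 11 auxin libraries and could not be tested. The count was 35 to 39 without h1D-h2D Sen1-AID replicate 1, without h1D-h2D Top1-AID replicate 1, or without any 1 library of Sen1-AID, h1D-h2D or WT. Read depth and list length cannot be told apart from genotype here. With all lists shortened to their 254 highest-scoring peaks no tRNA gene was called. The combined mutants then covered 96 ± 7.30 tRNA genes (SD, n = 4) and the others 67.7 ± 27.5 (n = 7). The direction of the difference turned, with overlap, at 88 to 104 and 35 to 119 genes. This cut took few peaks from the combined-mutant lists and many from the others, and peaks on tRNA genes ranked low in all. It therefore does not separate list length from genotype. No tRNA gene was called either when all 6431 genes entered the adjustment or when peaks under the pooled median score were left out. The latter takes raw scores as comparable between lists, which was not tested. With replicate number as a block none was called, and the smallest adjusted p of that exact test was 0.0563.

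Among the 35, the genes with the highest WT percentiles were YNCK0005C, IMT4, TRR4, YNCD0031C, YNCE0016C, YNCK0011C, YNCB0018W, CDC65, YNCI0008C and YNCG0040C. IMT4, an initiator methionine tRNA gene (V 100133–100204), had no peak in any combined-mutant library. Its percentiles were 80.1 and 42.2 in Sen1-AID, 81.2 and 23.8 in h1D-h2D, 77.8 in Top1-AID, and 85.8 and 75.8 in WT. Its peak was present but varied widely in rank between replicates. CDC65, a glutamine tRNA gene (XIII 808246–808317), likewise had none in the combined mutants, and its percentiles were even, at 61.2 and 60.2 in Sen1-AID, 58.8 and 53.2 in h1D-h2D, 49.1 in Top1-AID, and 49.3 and 50.6 in WT. YNCK0005C had percentiles of 74.6 and 9.14 in Sen1-AID and of 81.2 and 84.7 in WT. YNCK0005C, IMT4 and TRR4, an arginine tRNA gene, averaged percentiles of 82.9, 80.8 and 73.5 in WT, so genes from the upper part of the WT lists were among those without a peak in the combined mutants.

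Only YNCM0021C (XIII 372445–372518) was called more often covered among the tRNA genes, with 4 of 4 combined-mutant libraries and 1 of 7 others (p = 0.0152, adjusted p = 0.0482 by Fisher's exact test). In all, 2 of 1199 genes were called in this direction, a background of 0.167%. A Ty gene lay within 1 kb of it. In the 4 combined-mutant libraries its peak ran 7314 to 7373 bp upstream and also held YNCM0022C. In Sen1-AID replicate 2, the 1 other auxin library that covered it, the peak ran 521 bp upstream. The added coverage was thus 1 wide peak over the sequence between these tRNA genes, and leaving out any 1 of 10 of the 11 libraries, Sen1-AID replicate 2 being the exception, ended the call.

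Pairs of groups with 2 libraries each cannot go below p = 0.333 in an exact test, so the pairwise contrasts are descriptions. A gene was counted as lost when a peak overlapped it in no library of the mutant and in every WT library, and as gained in the opposite case. WT covered 226 tRNA genes in both libraries and 24 in neither. For gains, the share over all nuclear genes includes the many genes without a peak in any library (59.3% of the other genes). It is therefore not a like-for-like measure beside tRNA genes. Sen1-AID and h1D-h2D kept a peak in at least 1 library on nearly all of the 226. Sen1-AID lost 3 of the 226 genes (1.33%), where the share over all nuclear genes was 3.63%, and gained 3 of the 24 (12.5%), where it was 0.59%. The lost genes were YNCE0027C, YNCL0038W and YNCG0037W, at mean WT percentiles of 32.7, 23.1 and 11.6. The gained genes were YNCM0007C, YNCG0021W and YNCL0007W, at mean Sen1-AID percentiles of 37.0, 24.5 and 22.9. All 6 were in the lower part of the lists. In h1D-h2D, 5 genes were lost (2.21%, against 3.13% over all genes) and 1 gained (4.17%, against 0.371%). The lost ones were YNCH0004C, YNCG0032W, YNCB0006W, SUF16 and YNCN0003W, and the gained one was YNCM0007C, which Sen1-AID also gained against the same WT libraries. These small counts moved with single libraries. Leaving out 1 library gave 5 to 23 lost and 3 to 8 gained in Sen1-AID, with 23 lost without Sen1-AID replicate 1, and 6 to 14 lost and 1 to 8 gained in h1D-h2D, with 14 lost without h1D-h2D replicate 1. Lists of equal length gave 10 gained in Sen1-AID, and 1 lost and 3 gained in h1D-h2D.

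Top1-AID replicate 1 lacked 57 of the 226 genes (25.2%, against 15.8% over all genes) and gained 0 of 24 (0.764% over all genes). The genes with the highest WT percentile among the 57 were SUP7 at 88.3 and YNCL0032C at 67.2, followed by YNCI0011W, YNCC0014W, YNCG0008W, YNCJ0017C, YNCG0039W and SUP8. SUP7 and SUP8 are tyrosine tRNA genes. With 1 library of Top1-AID there is no replicate check of this value, and with lists of equal length the library lacked 11 genes and gained 2.

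In the full lists the combined mutants lost many more. In h1D-h2D Sen1-AID, 105 of 226 genes were lost (54.1% over all genes) and 3 of 24 gained (12.5%, against 2.71% over all genes). In h1D-h2D Top1-AID, 117 were lost (54.1% over all genes) and 2 gained (8.33%, against 0.284% over all genes). The 2 strains lost a like share of the tRNA genes, 46.5% and 51.8%, both below that of all genes. With lists of equal length the balance turned round, to 12 lost and 38 gained for h1D-h2D Sen1-AID and to 9 lost and 28 gained for h1D-h2D Top1-AID. That cut took more peaks from the WT lists, of 666 and 617 peaks, than from those of the combined mutants. Leading losses in h1D-h2D Sen1-AID were YNCE0005W, YNCL0044W, TRN1, YNCE0004C, YNCK0005C, YNCC0010C, IMT4 and TRR4. In h1D-h2D Top1-AID they were YNCL0044W, SUP7, YNCD0015C, YNCK0005C, IMT4, TRR4, YNCH0004C and YNCD0031C. IMT3, an initiator methionine tRNA gene, was covered in the 2 h1D-h2D Sen1-AID libraries, at percentiles of 81.6 and 76.2, and in none of the other 12. Its peaks there ran 2394 and 2145 bp past the gene and 3363 and 3395 bp before it. YNCM0021C and YNCN0008C were the other gains in h1D-h2D Sen1-AID, and YNCM0021C and YNCP0019W the gains in h1D-h2D Top1-AID.

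The 2 combined mutants were also set against each other. h1D-h2D Sen1-AID lacked 16 of the 79 tRNA genes covered in both h1D-h2D Top1-AID libraries (20.3%, against 29.7% over all genes). These were led by YNCE0005W, YNCE0004C and YNCC0010C at mean percentiles of 92.9, 80.2 and 80.2 in h1D-h2D Top1-AID. In both its libraries h1D-h2D Sen1-AID covered 22 of the 150 genes that h1D-h2D Top1-AID covered in neither (14.7%, against 4.71% over all genes). YNCL0037W and YNCL0038W, 2 neighbours on chromosome XII, led these at mean percentiles of 93.7 and 91.1, followed by YNCD0026W, SUF16 and IMT3. YNCL0037W reached percentiles of 91.8 and 95.6 in h1D-h2D Sen1-AID, where WT replicate 2 had 10.1 and WT replicate 1 no peak. Genes differed in both directions, by a count that no test supports at this number of libraries.

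Galactose induction of HO left most tRNA genes covered. In galactose 15 of the 206 genes covered in dextrose had no peak in either library (7.28%, against 10.5% over all genes). These were led by YNCK0005C, YNCG0034W and YNCI0009W at dextrose percentiles of 26.9, 25.8 and 23.8. Both galactose libraries covered 7 of the 69 genes without a dextrose peak (10.1%, against 1.66% over all genes). They were YNCI0008C, YNCK0006C, YNCD0024C, YNCD0014C, YNCG0030C, YNCL0049C and YNCP0020W. YNCI0008C was highest of them, at a mean galactose percentile of 62.0. There is 1 dextrose library, so its spread is unknown.

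The second comparison asked where the peak lies relative to the gene, read along the direction of transcription. Upstream reach is the distance from the gene's start to the peak edge before it, downstream reach that from the gene's end to the peak edge past it. In Sen1-depleted libraries peaks lay further downstream, most in h1D-h2D Sen1-AID, and in most other auxin libraries they were close to centred on the tRNA gene, while other nuclear genes also had downstream offsets. From gene midpoint to peak midpoint, the h1D-h2D Sen1-AID medians were 121.5 and 101 bp downstream, and those of Sen1-AID 49.5 and 25.5 bp. Without Sen1 depletion the h1D-h2D Top1-AID medians were 47.5 and 14.75 bp, with 7.75 and 3.75 bp in h1D-h2D, -4 bp in Top1-AID, and 4.5 and -1.25 bp in WT. The medians of Sen1-AID replicate 2 and h1D-h2D Top1-AID replicate 1 overlap the other group. The upper quartile did not overlap, at 95.9 to 354 bp in Sen1-depleted libraries and 33 to 81.9 bp in the other 7. Gal-HO medians were 3.5 and 2 bp in galactose, and -4.5 bp in dextrose. At the other nuclear genes the medians were larger in several libraries: 739 and 574 bp for h1D-h2D Sen1-AID, -0.25 and 206.5 bp for Sen1-AID, 356.5 and 339 bp for h1D-h2D Top1-AID, and -20 to 105.75 bp for h1D-h2D, Top1-AID and WT. A downstream offset was therefore not shown to be particular to tRNA genes.

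**Figure D2:**
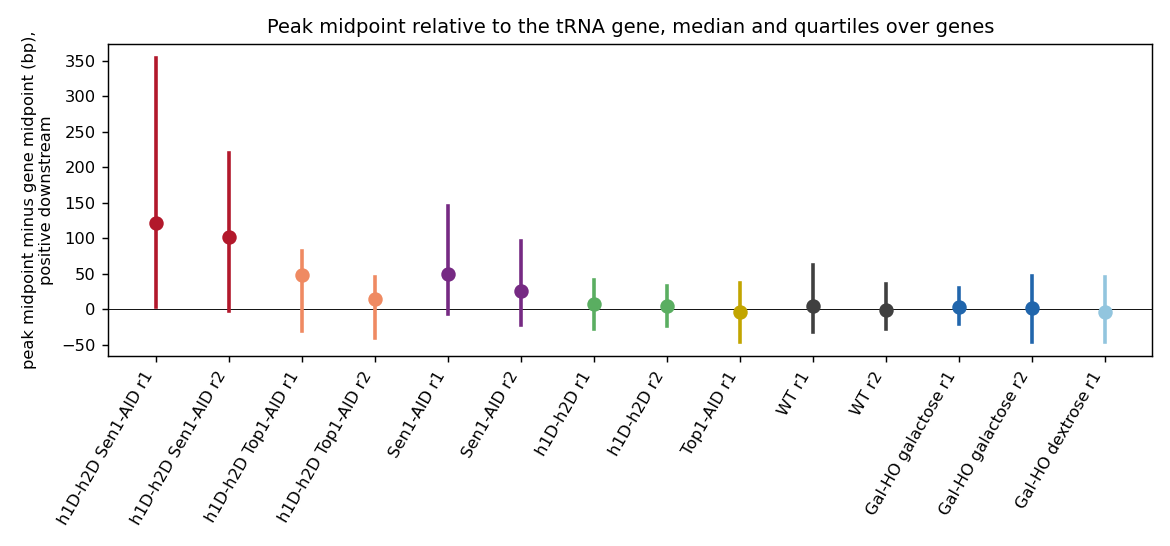
Distance from the tRNA gene's midpoint to its peak's midpoint (bp, positive downstream) in each of the 14 libraries; points are medians over the covered tRNA genes and lines run between quartiles. The upper quartile lies at 95.9 to 354 bp in h1D-h2D Sen1-AID and Sen1-AID, and at 33 to 81.9 bp in the other 7 auxin libraries.

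The groups stood further apart at the downstream edge than at the upstream edge. Past the gene, the h1D-h2D Sen1-AID medians were 793 and 754 bp and those of Sen1-AID 708.5 and 585.5 bp, a mean of 710 ± 90.1 bp (SD, n = 4 libraries). The h1D-h2D Top1-AID medians were 621 and 504 bp, with 603.5 and 535 bp in h1D-h2D, 556 bp in Top1-AID, and 630 and 570 bp in WT, a mean of 574 ± 46.5 bp (n = 7). The difference was 136 bp, and Sen1-AID replicate 2 lay within the range of the 7. Median upstream reach averaged 549 ± 27.4 bp with Sen1 depletion and 556 ± 41.6 bp without it, so it differed by less than the spread between libraries. Over all other nuclear genes the median downstream reach averaged 1015 ± 321 bp with Sen1 depletion and 776 ± 65.0 bp without it. These groups overlapped too, and no longer downstream reach particular to tRNA genes was shown.

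The same order held where the set of genes was the same in every library. Over the 44 tRNA genes covered in all 11 auxin libraries, h1D-h2D Sen1-AID had median midpoints 186 and 181.25 bp downstream, and Sen1-AID had 138.5 and 89.5 bp. The h1D-h2D Top1-AID values were 61.75 and 33.5 bp, with 20.25 and 32 bp in h1D-h2D, 29 bp in Top1-AID, and 26.25 and 7.75 bp in WT. In this set the 4 Sen1-depleted libraries lay above the other 7. Gene by gene, the midpoint difference (Sen1-depleted minus others) had a median of 79.2 bp over these 44 genes. Over the 173 other nuclear genes measured in all 11 libraries it was 138.75 bp, so the shift was not particular to tRNA genes. Over tRNA genes that were alone among tRNA genes in their peak, the h1D-h2D Sen1-AID medians lay at 110.5 and 90.75 bp, Sen1-AID had 39 and 22 bp, and the range was -5.5 to 40.75 bp in the auxin libraries without Sen1 depletion.

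**Figure D3:**
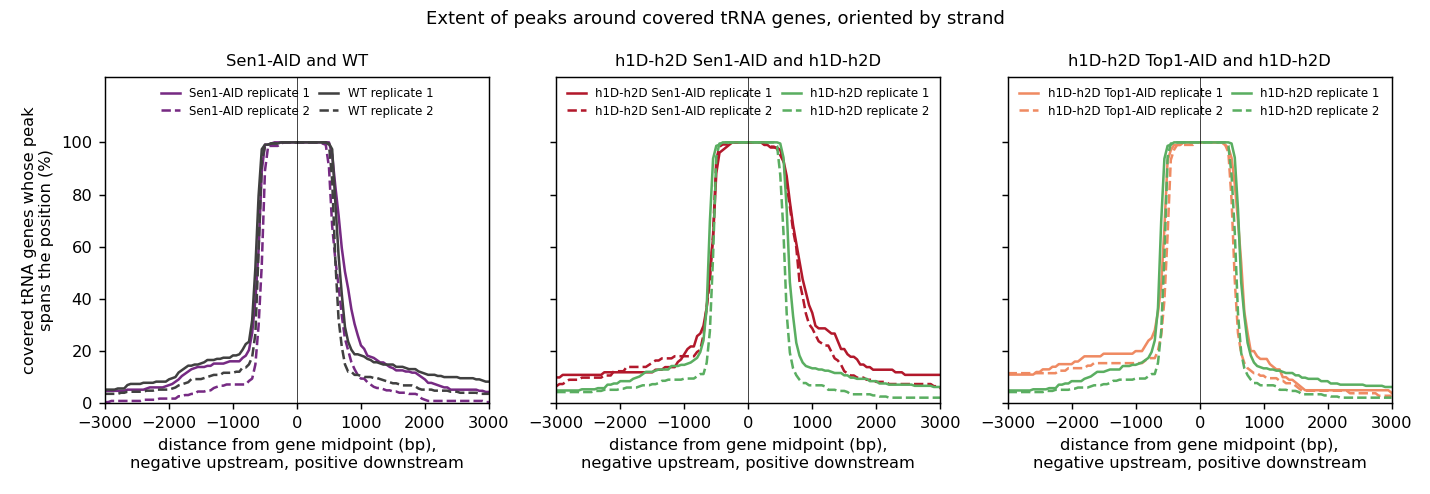
Share of covered tRNA genes (%) whose peak spans each position, by distance from the gene midpoint (bp, negative upstream, positive downstream); each line is 1 library, with Sen1-AID beside WT on the left and the combined mutants beside h1D-h2D in the middle and on the right. At 1000 bp downstream the h1D-h2D Sen1-AID shares are 34.7% and 28.7%, and the h1D-h2D shares 13.4% and 6.90%.

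At 1000 bp downstream of the gene midpoint, h1D-h2D Sen1-AID peaks still ran on at 34.7% and 28.7% of the covered tRNA genes, and Sen1-AID peaks at 22.2% and 9.46%. The h1D-h2D Top1-AID shares there were 17% and 10.6%, with 13.4% and 6.90% in h1D-h2D, 15.2% in Top1-AID, and 18.3% and 10.5% in WT. At the same distance upstream h1D-h2D Sen1-AID had shares of 18.8% and 18%, Sen1-AID had 16.1% and 7.21%, and the range was 9.48% to 20% in the auxin libraries without Sen1 depletion. The h1D-h2D Sen1-AID libraries thus had the highest shares downstream, while the Sen1-AID libraries lay on either side of the WT libraries.

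Gene by gene, 14 of the 44 tRNA genes measured in all 11 auxin libraries had a longer downstream reach with Sen1 depletion (31.8%), by an exact permutation test over the 330 splits of 4 libraries against 7, adjusted over the 217 nuclear genes tested. The background over all 217 genes was 22.6%. None had a shorter reach, where the background was 0% and where 3 of the 44 had an unadjusted p under 0.05. For the upstream reach 0 of 44 were called in either direction, where 7.37% of all genes were called longer, 0% shorter, and 2 tRNA genes had an unadjusted p under 0.05, both shorter. The peak midpoint, a measure added after the data were seen, lay further downstream at 16 of 44 (36.4%, background 22.6%) and further upstream at 0 (background 11.5%), and 9 genes were called by both measures. Without h1D-h2D Sen1-AID replicate 1, or without its replicate 2, the count for downstream reach was 0, and without Sen1-AID replicate 1 it was 8. For the midpoint the count was 10 without h1D-h2D Sen1-AID replicate 2. With lists of equal length 3 genes were called for downstream reach and 3 for the midpoint.

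YNCE0018W (V 354934–355005) showed it in all 4 libraries. With h1D-h2D Sen1-AID at 1682 and 1456 bp and Sen1-AID at 1638 and 1360 bp, its peak went far past the gene, against 616 to 727 bp in the 7 others. The difference was 868 bp (exact permutation p = 0.00303, the smallest that these splits can give; adjusted p = 0.0188), and the upstream reach was 495 bp on average with Sen1 depletion and 547 bp without it. YNCD0007C (IV 488797–488870) reached 1352 and 1440 bp (h1D-h2D Sen1-AID) and 1375 and 1122 bp (Sen1-AID), against 620 to 766 bp in the others. Its upstream reach was 642 to 766 bp with Sen1 depletion and 579 to 4188 bp without it. At both genes the groups did not overlap downstream, and Sen1-AID lay near h1D-h2D Sen1-AID.

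At other genes h1D-h2D Sen1-AID stood apart from Sen1-AID. YNCG0038C (VII 828723–828794) reached 3520 and 3631 bp for h1D-h2D Sen1-AID, 990 and 704 bp for Sen1-AID, and 523 to 688 bp in the others. SOE1, a glutamate tRNA gene (VII 328583–328654), reached 3877 and 1401 bp for h1D-h2D Sen1-AID, 964 and 734 bp for Sen1-AID, and 575 to 733 bp in the others. The margin at SOE1 was 1 bp between the lowest Sen1-depleted library and the highest of the others. YNCO0008W, YNCO0011W, YNCO0016W and YNCP0017C differed by 236, 329, 285 and 286 bp, each without overlap between the groups and each with adjusted p = 0.0188 by the exact permutation test. YNCJ0011W and YNCJ0012W, which lie 10 bp apart in 1 peak and so give 1 result, differed by 137 bp. Over the 14 called genes the differences were 137 to 1579 bp with a median of 307 bp, and 10 of 14 had no overlap.

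**Figure D4:**
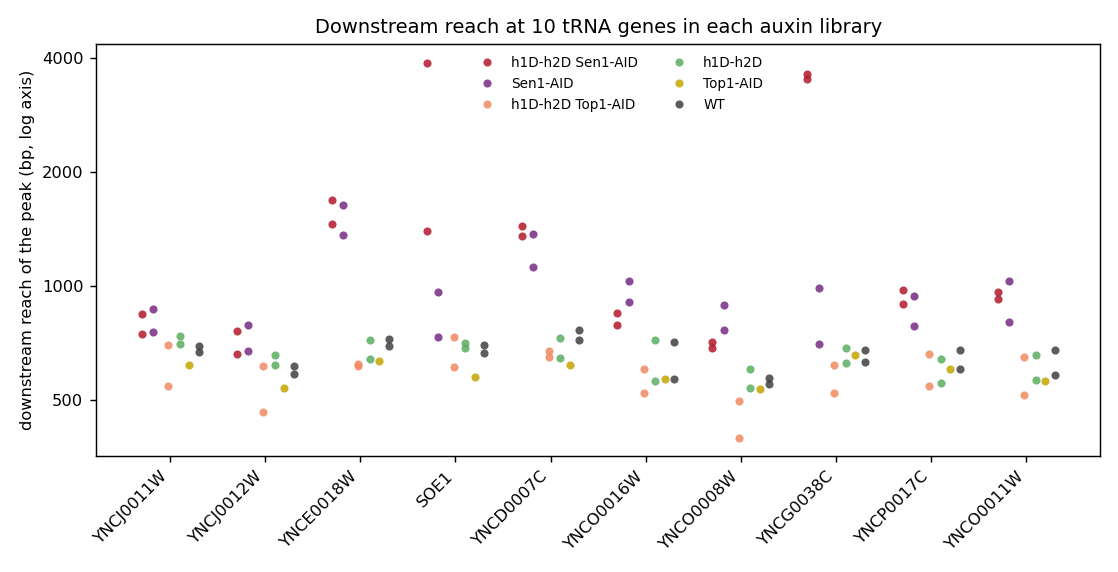
Downstream reach of the peak (bp, log axis) at the 10 tRNA genes with the smallest p for a longer reach in Sen1-depleted libraries; each point is 1 of the 11 auxin libraries, coloured by strain, with Sen1-depleted libraries on the left of each gene. At YNCE0018W the Sen1-depleted libraries lie at 1360 to 1682 bp and the others at 616 to 727 bp.

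Sen1 depletion alone was set against WT at the 195 tRNA genes measured in all 4 libraries. Both Sen1-AID libraries reached further downstream than both WT libraries at 53 genes (27.2%, background 18.9% of 869 genes) and less far at 21 (10.8%, background 18.4%). Upstream, they reached less far at 88 genes (45.1%, background 29.9%) and further at 7 (3.59%, background 7.83%). The midpoint lay further downstream at 79 (40.5%, background 36%) and further upstream at 25 (12.8%, background 16.1%). The median differences were 3.5 bp downstream, -49.5 bp upstream and 35 bp for the midpoint. Against WT the offset in Sen1-AID alone thus came with shorter upstream reaches at many genes. The longest differences were at YNCA0006C and SUP56, on chromosome I, at 1327 and 1312.5 bp. These genes face each other 1267 bp apart and shared 1 peak in the 2 Sen1-AID libraries and in no other library, so each reach includes the other gene. YNCA0006C had 1962 and 1882 bp in Sen1-AID and 602 and 588 bp in WT, while the h1D-h2D Sen1-AID reaches were 523 and 608 bp.

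YNCD0004W, SUP51, YNCE0018W, EMT3, YNCC0010C and YNCG0005W followed, at 923 to 616 bp. SUP51 and EMT3, an elongator methionine tRNA gene, also face each other and shared a peak in Sen1-AID replicate 1 only. At all of these except YNCE0018W, replicate 1 had a far longer reach than replicate 2: SUP51 had 2191 bp in the longer and 542 bp in the shorter Sen1-AID library, against 579 and 544 bp in WT. The shortest reaches relative to WT were at YNCI0008C, YNCJ0019C, YNCG0039W, SUP61, YNCB0016W, YNCB0015W, SUF2 and YNCH0003C, at -2074.5 to -1107.5 bp. YNCI0008C had 1494 and 549 bp in Sen1-AID and 3085 and 3107 bp in WT. Single genes thus moved in both directions.

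The other strains were also set against WT, and all of these counts share the WT libraries. In h1D-h2D, 205 tRNA genes were measured in all 4 libraries, and both mutant libraries reached further downstream than both WT libraries at 2 (background 1.85%) and less far at 33 (background 16.7%). Upstream they reached further at 0 (background 0.793%) and less far at 58 (28.3%, background 17.7%). The midpoint lay further downstream at 37 (18%, background 15.8%) and further upstream at 29 (14.1%, background 10.5%). The downstream shares at tRNA genes, 0.976% longer and 16.1% shorter, were near those of all genes, and the upstream share of shorter reaches was 28.3%. In h1D-h2D Sen1-AID, 82 genes were measured, with a longer downstream reach at 46 (56.1%, background 48%) and a shorter one at 17 (20.7%, background 33.4%). Upstream, 17 were longer (20.7%, background 25.9%) and 50 shorter (61%, background 56.1%). The midpoint lay further downstream at 47 (57.3%, background 56.6%) and further upstream at 13 (15.9%, background 30.9%). In h1D-h2D Top1-AID, 70 genes were measured, with a longer downstream reach at 0 (background 2.21%) and a shorter one at 41 (58.6%, background 66.2%). Upstream, 2 were longer (2.86%, background 2.21%) and 55 shorter (78.6%, background 73.5%). The midpoint lay further downstream at 21 (30%, background 43.1%) and further upstream at 18 (25.7%, background 25.2%). Most of these shares of tRNA genes were near or below those of all genes. Shorter upstream reaches in h1D-h2D and longer downstream reaches in h1D-h2D Sen1-AID were among those above.

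In cells without RNase H, Sen1 and Top1 depletion gave different reaches. Relative to h1D-h2D, h1D-h2D Sen1-AID reached further downstream at 44 of 78 tRNA genes measured in all 4 libraries (56.4%, background 54.7%) and less far at 8 (10.3%, background 23.3%). h1D-h2D Top1-AID reached further downstream at 1 of 68 (1.47%, background 5%) and less far at 22 (32.4%, background 50.8%), and upstream it reached less far at 41 (60.3%, background 61.5%). These counts share the h1D-h2D libraries. Set directly against h1D-h2D Top1-AID, h1D-h2D Sen1-AID reached further downstream at 35 of 52 genes (67.3%, background 68%) and less far at 3 (5.77%, background 7.34%), with a median difference of 194.5 bp at tRNA genes and 283.5 bp at other genes. The shares at tRNA genes were near those of all genes, so these longer reaches were not a result about tRNA genes.

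tRNA genes near a Ty gene were covered less on average in both sets of libraries, though not in h1D-h2D Top1-AID. The 36 tRNA genes with a Ty gene within 1 kb were covered at 11.5 ± 4.12 genes (31.9%) in the combined mutants (SD, n = 4) and 17.6 ± 5 (48.8%) in the other auxin libraries (n = 7). The 239 others were covered at 95.3 ± 12.8 (39.9%) in the combined mutants and 205 ± 20.4 (85.7%) in the other auxin libraries. In h1D-h2D Sen1-AID, both libraries covered 22.2% of the genes near Ty, and 38.9% and 47.7% of the rest. In h1D-h2D Top1-AID the shares were 38.9% and 44.4% near Ty, and 36.0% and 36.8% of the rest. Near Ty genes the groups overlapped, with 8 to 16 covered genes in combined-mutant libraries and 10 to 25 in the others, and away from Ty genes they did not. Of 26 genes near Ty that were tested 4 were called less often covered (15.4%), and of 126 away from Ty, 57 (45.2%), where the share over all 1199 genes tested was 31.3%. Among other nuclear genes, Ty genes left out, 4 of 25 tested near Ty (16%) and 306 of 972 away from Ty (31.5%) were called. The lower share of genes called near Ty was thus not shown to be particular to tRNA genes. Coverage of these other genes went the other way. In the combined mutants it averaged 19.1% near Ty and 9.47% away from Ty, and in the other auxin libraries 28.3% and 20.4%. Lower coverage near Ty was therefore seen at tRNA genes and not at other genes. With lists of equal length no tRNA gene was called in either place. Sequence copies of Ty and its ends occur many times in the genome, and how reads with several matches were treated is not given in the sources used here, so the part this played was not tested. All 41 genes covered in every library lay away from Ty. The 16 tRNA genes with another tRNA gene within 1 kb were covered at 13.5 ± 1 (84.4%) in combined mutants and 16 ± 0 in other auxin libraries, and 12 of them in all 14 libraries.

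**Figure D5:**
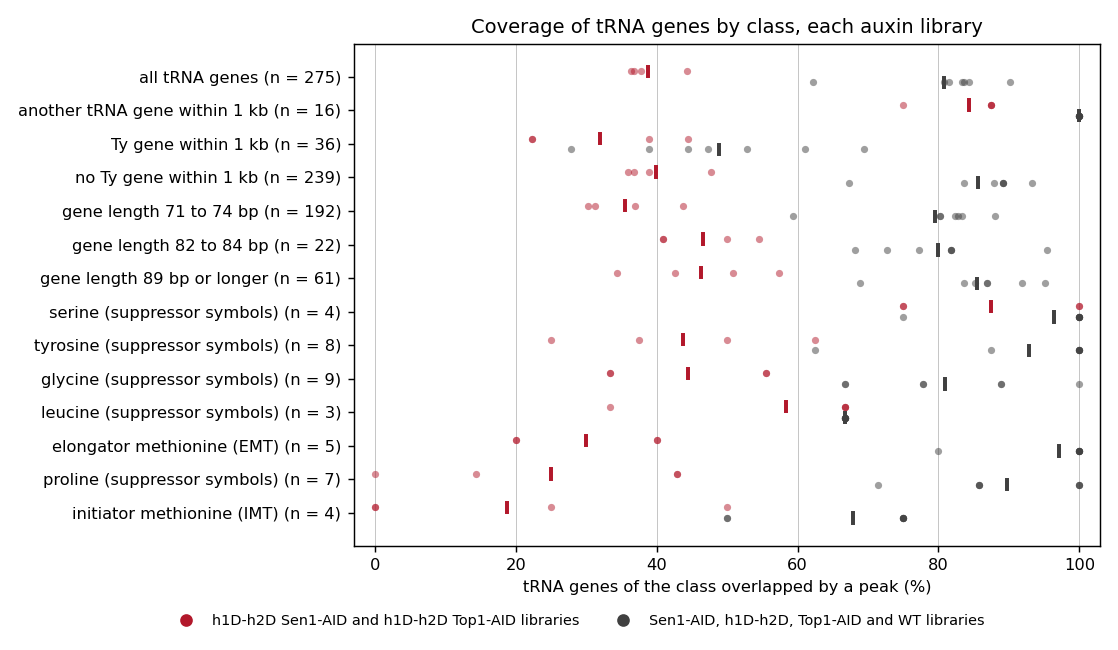
Share of tRNA genes overlapped by a peak (%) by class, 1 point per auxin library and a bar at the mean; red points are the 4 combined-mutant libraries, above the 7 other auxin libraries in grey. Genes near Ty average 31.9% and 48.8%, and the rest 39.9% and 85.7%. Among the red points near Ty, both h1D-h2D Sen1-AID libraries lie at 22.2%, and h1D-h2D Top1-AID at 38.9% and 44.4%.

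The annotation table gives no amino acid, and only 40 genes with textbook symbols were placed in a family described here. Over the 14 libraries initiator methionine genes, whose tRNA starts translation, had the lowest share covered, 50%, and serine genes the highest, 94.6%. Initiator methionine genes were covered at 0.75 ± 0.957 of 4 (18.75%) in combined mutants and 2.71 ± 0.488 (67.9%) in other auxin libraries. Serine genes were covered at 3.5 ± 0.577 of 4 (87.5%) and 3.86 ± 0.378 (96.4%). Proline genes had 1.75 ± 1.5 of 7 in combined mutants and 6.29 ± 0.756 in other auxin libraries, and elongator methionine genes 1.5 ± 0.577 of 5 and 4.86 ± 0.378. Tyrosine genes had 3.5 ± 1.29 of 8 and 7.43 ± 1.13, glycine genes 4 ± 1.15 of 9 and 7.29 ± 1.11, and leucine genes 1.75 ± 0.5 of 3 and 2 ± 0. Serine and leucine genes overlapped between the groups, and so did initiator methionine and tyrosine, each by 1 value. The families hold 3 to 9 genes, and the order among them rests on few genes. By gene length, 35.5% of the 192 genes of 71 to 74 bp were covered in combined mutants and 79.5% in other auxin libraries. For the 61 genes of 89 bp or longer the shares were 46.3% and 85.5%. In h1D-h2D Top1-AID, 31.25% and 30.2% of the shorter genes were covered and 50.8% and 57.4% of the longer. In h1D-h2D Sen1-AID these shares were 37.0% and 43.75%, and 34.4% and 42.6%, so of the combined mutants only h1D-h2D Top1-AID covered longer genes more. Each of the other auxin libraries also covered a higher share of the longer genes. By strand, combined mutants and other auxin libraries covered 40% and 80.4% on the plus strand, and 37.5% and 81.3% on the minus strand.

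Genes outside the set that share or serve RNA polymerase III were described from fixed lists. Of 10 other genes it transcribes, 2 ± 0.816 were covered in combined mutants and 3.29 ± 0.756 in other auxin libraries, 2 could be tested and 0 were called in either direction. RPR1, the RNA of RNase P, which trims the tRNA 5′ end, was covered in all 14 libraries, SNR52 in 12 and SCR1 in 3. At RPR1 the h1D-h2D Sen1-AID peaks ran 2791 and 2308 bp past the gene, the Sen1-AID peaks 732 and 672 bp, and the range was 655 to 1033 bp in the auxin libraries without Sen1 depletion. Of 9 TFIIIC and TFIIIB genes only TFC3, a TFIIIC subunit, had any peak, in 1 of 4 combined-mutant libraries and 7 of 7 others (p = 0.0242, adjusted p = 0.0594 by Fisher's exact test, above the threshold). Of 12 polymerase subunit genes 8 had no peak in any library, none could be tested, and RPC17 had a peak in all 14. In the 11 auxin libraries the RPC17 peak was the same peak that held the tRNA genes YNCJ0018W and YNCJ0019C. Of 16 tRNA processing and export genes, 3 could be tested and SEN2, a subunit of the tRNA splicing endonuclease, was called less often covered, with 0 of 4 and 7 of 7 (adjusted p = 0.0256 by Fisher's exact test). SEN15, another subunit, and POP1, an RNase P protein, had 0 of 4 and 5 of 7 (adjusted p = 0.121 for each by the same exact test).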

How the data were processed

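Rad52 chromatin immunoprecipitation was read as 14 deposited peak lists in 8 groups. The authors aligned reads with Bowtie2 and called peaks with MACS2 on sacCer3, per the submitters' processing notes, which give no versions here. The deposited score of each peak has no stated scale, so it was used as a percentile within its list. The score minimum among the alternatives was the exception, and it takes raw scores as comparable between lists. Read depth and the use of a control are not given in the sources used here. Of 7181 deposited peaks, 7176 were nuclear and were used.

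A gene was covered when a peak overlapped it by at least 1 bp. Genes came from the RefSeq table for R64, with strand read from the locus tag. Presence was tested per gene with Fisher's exact test and reach with exact permutation, each with Benjamini-Hochberg adjustment over all nuclear genes tested at 0.05. Replicate numbers were not used to pair libraries, because only 3 of 15 correlations of same-numbered libraries were above 0.1, those among Sen1-AID, h1D-h2D and WT. Named genes were the 8 with the highest WT percentile, the 10 with the smallest p per test and direction, the 8 longest and the 8 shortest in Sen1-AID against WT, up to 8 lost and gained per comparison, and all without a peak. Members and lists were chosen with earlier results of these data known, and the peak midpoint measures were added after seeing the data. Alternatives were a score minimum, lists of equal length, joined peaks, whole-gene overlap, no filter, a replicate block, genes away from other peak classes, a looser presence rule and each library left out. Scripts in Python 3.11.15 with numpy 2.4.6, pandas 2.3.3, scipy 1.17.1 and matplotlib 3.10.9 were tested on simulated data.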

Additional observations from a re-analysis of the deposited data

Results flagged for a closer look

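Among the 7 auxin libraries outside the combined mutants, Top1-AID replicate 1 covered 171 tRNA genes and lay far below the other 6, which covered 222 to 248. Among the 7 auxin libraries without Sen1 depletion, h1D-h2D Top1-AID replicate 1 had a median peak midpoint 47.5 bp downstream of tRNA genes, far above the other 6, at -4 to 14.75 bp. Such a gap arises by chance in about 1 in 20 groups. Several measures were looked at in several overlapping groups, so some such gaps would arise by chance. The groups also mix strains, and Top1-AID replicate 1 was the only library of its strain.

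The median midpoint differed in sign of effect between backgrounds for Top1 depletion. It was 25.4 bp further downstream in h1D-h2D Top1-AID than in h1D-h2D, and -5.63 bp in Top1-AID against WT, so the effects differed by 31 bp. This difference was not tested, and Top1-AID had 1 library.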

How the results depend on the processing

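With lists of equal length the number of covered tRNA genes turned from -116 to 28.3 (combined mutants minus others), 0 genes were called less often and 0 more often covered, and 3 were called for downstream reach and 3 for the midpoint, whose median difference was 99.2 bp. Lost and gained genes under equal length were 10 gained in Sen1-AID, 1 lost and 3 gained in h1D-h2D, 11 lost and 2 gained in Top1-AID, 12 lost and 38 gained for h1D-h2D Sen1-AID, and 9 lost and 28 gained for h1D-h2D Top1-AID, all against WT, with 14 gained between the combined mutants and 2 in galactose. With a minimum at the pooled median score of 194, 0 genes were called less often and 0 more often covered, the difference in covered genes was -82, and the median differences were 310 bp for downstream reach and 141 bp for the midpoint. There, 10 genes were lost and 0 gained in Sen1-AID, 2 gained in h1D-h2D, 6 for h1D-h2D Sen1-AID, none (0) for h1D-h2D Top1-AID, with 5 lost between the combined mutants and 2 gained in galactose. With no filter on covered libraries 0 were called in either direction. Without genes near other peak classes, 0 were called more often covered, 2 were lost and 0 gained in h1D-h2D, 1 gained for h1D-h2D Sen1-AID, none (0) for h1D-h2D Top1-AID, and 10 lost between the combined mutants. With genes covered in at least 3 of 4 and 5 of 7 libraries, 25 were called for the midpoint. The cause of these changes was not tested.

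With the replicate block 0 genes were called less often and 0 more often covered, 14 for downstream reach and 15 for the midpoint, where the smallest adjusted p for presence was 0.0563 and 82 tRNA genes were less often covered at an unadjusted exact p under 0.05. The block leaves fewer arrangements, with a smallest p of 0.00667. Correlations of same-numbered libraries were -0.169 to 0.404 over 15 pairs of groups. They were 0.301 to 0.404 among Sen1-AID, h1D-h2D and WT, a hint from the data that the number ties these 6 libraries. Within numbers, median downstream reach in Sen1-AID exceeded that in WT by 78.5 and 15.5 bp and that in h1D-h2D by 105 and 50.5 bp.

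Leaving out each library in turn gave 35 to 55 genes less often and 0 to 1 more often covered, a difference of -124 to -111 covered genes, 0 to 16 genes with a longer and 0 to 1 with a shorter downstream reach, 0 with another upstream reach, and 10 to 18 with a midpoint further downstream and 0 to 1 further upstream. Median differences were 108 to 178 bp for downstream reach and 48.2 to 80.2 bp for the midpoint. Against WT, lost and gained genes were 5 to 23 and 3 to 8 in Sen1-AID, 6 to 14 and 1 to 8 in h1D-h2D, 60 to 77 and 0 to 2 in Top1-AID, 107 to 135 and 3 to 8 for h1D-h2D Sen1-AID, and 119 to 139 and 2 to 8 for h1D-h2D Top1-AID. They were 17 to 31 and 28 to 36 between the combined mutants, and 21 to 42 and 12 to 13 in galactose. Of 129 values under the other alternatives, 89 kept their direction and stayed within 1.5 times the reported count or within 1 SD of the reported difference, 39 moved further and 1 reversed. Read depth, which is unknown, limits how firmly an absent peak can be read.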

Other observations

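Pairs of tRNA genes in 1 peak were 11 in tandem, 6 convergent and 2 divergent, and 6 pairs shared a peak in all 14 libraries. These 6 were YNCB0004W with YNCB0005C, YNCB0015W with YNCB0016W, YNCG0028W with YNCG0029C, YNCJ0011W with YNCJ0012W, YNCJ0013C with YNCJ0014C, and YNCJ0018W with YNCJ0019C, with gaps of 10 to 892 bp. SUF10 and YNCN0017W, divergent and 681 bp apart, shared a peak in 10 libraries, none of them a combined mutant.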
